A study of Mus musculus with 84 samples.

Results

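Cdkn1a, the Gadd45 genes and 6 further targets of the transcription factor p53 were followed in the livers of mice fed 3 organophosphate pesticides (OPPs). The 10 genes were Cdkn1a, Gadd45a, Gadd45b, Gadd45g, Mdm2, Ccng1, Trp53inp1, Btg2, Phlda3 and Bbc3, found by symbol among the 17695 genes of the count table. All 10 had a median count above 8 over the mice and so were among the 10415 genes tested. Cdkn1a and Gadd45b were chosen by their measured levels, which were higher at the highest parathion dose in these same mice, and the other 8 were added to see whether the p53 targets went with them. Every value at that dose is therefore given below as a description, with no p-value for any of the 10 genes. Transcript levels were measured with TempO-Seq, in which a pair of detector oligos is ligated on each target transcript, and are given as counts scaled to a common library total, the usual CPM.

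The animals were 84 male B6C3F1 mice, 8 weeks of age when the 7-day feeding began, kept on an AIN-93G diet that was the same for all groups apart from the pesticide. There were 12 groups of 7 mice. One group was fed no pesticide. The dosed groups received fenthion (FT) at 2.5, 5, 10 and 20 ppm (0.375 to 3 mg/Kg-bw/day), methidathion (MT) at 10, 25, 50 and 100 ppm (1.5 to 15 mg/Kg-bw/day) and parathion (PT) at 20, 40 and 80 ppm (3 to 12 mg/Kg-bw/day). The animals had been handled in 3 experimental blocks, and every group drew 2 of its mice from block 1, 3 from block 3 and 2 from block 4. The RNA of 7 mice was isolated at the EPA and that of the other 77 at a service laboratory (EA), which isolated all 7 mice at PT 80 ppm. Mice are named here by group and a number that carries no further meaning. Mice were housed 4 to a cage and cages, not mice, were assigned to the diets, so mice of a group can share a cage, which the labels do not give. RNA came from frozen pieces of liver, in which fewer cells of a type and less RNA per cell cannot be told apart.

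The hepatocyte transcripts Alb and Apoa1 were abundant in every mouse, with lowest levels of 2984 and 8542 CPM, as the tissue label requires. Total counts per mouse ranged from 6950381 to 15300589, which puts 3 counts at between 0.196 and 0.432 CPM. Cdkn1a had a median of only 13 counts per mouse and 3 counts or fewer in 11 mice. Gadd45b had a median of 30 counts, Phlda3 of 18.5 and Bbc3 of 34. The mouse named PT 80 ppm mouse 1, of block 1, stood apart. Its Spearman correlation over all tested genes with the median of the other mice in its group was 0.947, the lowest of the 84 mice, against 0.963 to 0.986 for the other mice at PT 80 ppm. Its total count of 10877259 lay within the range of its group.

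p53 is kept low in unstressed cells by Mdm2, a ubiquitin ligase whose own gene p53 activates. When DNA is damaged or other stresses stabilise p53, it turns on a set of genes that slow the cell cycle, repair DNA or start apoptosis. Cdkn1a encodes p21, an inhibitor of cyclin-dependent kinases, and is the best known of these targets, but it is also induced without p53 by hormones, fasting and cytokines. The Gadd45 genes encode small stress proteins that bind the kinase Map3k4 and other partners. Gadd45a is a classical p53 target, whereas Gadd45b and Gadd45g are induced mainly by inflammatory, growth and metabolic signals. In liver, the level of several of these genes also varies with feeding and the time of day.

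The starts of the genes differ in the motifs they carry. The windows of 250 bases before and 50 bases from the start of the canonical Ensembl transcript were read from GRCm39 for the 3 genes with the largest values at PT 80 ppm, and for Mdm2 as the p53 target that feeds back on p53. Capitals mark matches on either strand to the p53 half-site or to one of the other motifs searched. The TATA box was read as TATAAA, and the GC box as GGGCGG. For the E-box the letters were CACGTG, and for the forkhead box they were GTAAACA. The glucocorticoid receptor half-site was taken to be AGAACA. For Cdkn1a, Gadd45b and Mdm2 that start lies inside the annotated gene, whose outermost transcript begins further upstream. Cdkn1a, chr17:29312488-29312787, plus strand, held 2 GC boxes. Gadd45b, chr10:80765657-80765956, plus strand, held 1 TATAAA, 1 GC box and 1 E-box. Trp53inp1, chr4:11156162-11156461, plus strand, held 1 p53 half-site, 2 GC boxes, 1 E-box and 2 glucocorticoid half-sites. Mdm2, chr10:117546614-117546913, minus strand, held 1 p53 half-site, 2 GC boxes and 1 forkhead box.
Cdkn1a: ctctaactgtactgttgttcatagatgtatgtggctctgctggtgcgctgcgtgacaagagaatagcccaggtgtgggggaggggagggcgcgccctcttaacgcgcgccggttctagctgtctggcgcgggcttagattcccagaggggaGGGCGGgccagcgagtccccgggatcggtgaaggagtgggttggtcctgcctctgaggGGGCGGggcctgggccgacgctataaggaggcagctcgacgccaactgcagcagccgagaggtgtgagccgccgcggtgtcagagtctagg
Gadd45b: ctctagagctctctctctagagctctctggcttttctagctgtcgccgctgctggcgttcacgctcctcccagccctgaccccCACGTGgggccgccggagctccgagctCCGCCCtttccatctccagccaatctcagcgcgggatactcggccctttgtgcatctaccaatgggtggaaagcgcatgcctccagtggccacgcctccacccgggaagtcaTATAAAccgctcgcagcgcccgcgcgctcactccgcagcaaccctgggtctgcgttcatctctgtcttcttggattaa
Trp53inp1: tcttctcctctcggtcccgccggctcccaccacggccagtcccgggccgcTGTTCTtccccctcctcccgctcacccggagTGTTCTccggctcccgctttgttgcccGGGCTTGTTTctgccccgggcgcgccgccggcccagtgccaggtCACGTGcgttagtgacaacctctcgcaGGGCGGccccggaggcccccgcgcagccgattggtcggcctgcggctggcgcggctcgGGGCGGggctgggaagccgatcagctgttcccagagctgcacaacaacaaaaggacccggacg
Mdm2: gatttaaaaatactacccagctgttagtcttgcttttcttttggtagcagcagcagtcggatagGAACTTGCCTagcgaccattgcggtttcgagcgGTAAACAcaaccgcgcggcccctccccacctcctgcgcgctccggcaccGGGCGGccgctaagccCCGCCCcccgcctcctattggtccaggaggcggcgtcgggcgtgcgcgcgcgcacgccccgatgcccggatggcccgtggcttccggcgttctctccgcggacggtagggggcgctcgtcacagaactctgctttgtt
A p53 half-site was present in 5 of the 10 windows, those of Gadd45a, Mdm2, Ccng1, Trp53inp1 and Bbc3, and in 7.52% of the 10408 windows of this length at tested genes. TATAAA was present in the windows of Gadd45b and Gadd45g, and in 9.43% of all windows. The GC box was present in 7 of 10 and 55.1% of all, the E-box in 3 of 10 and 9.73%, the forkhead box in 1 of 10 and 2.86%, and the glucocorticoid half-site in 1 of 10 and 13.9%. Such a match is a string of letters and no measured binding site, and elements outside these windows were not searched.

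Cdkn1a (chr17:29309936-29319701, GRCm39) was high at PT 80 ppm in a single mouse. The 7 control mice had 0.391, 0.545, 4.80, 2.33, 1.02, 1.78 and 1.11 CPM. At PT 80 ppm mouse 1 had 30.2 CPM, and the others had 2.24, 1.58, 0.672, 1.11, 0.539 and 0 CPM. The group medians were equal at 1.11 CPM, and 1 of the 7 dosed mice lay above the highest control mouse. The fitted log2 fold change was 2.41 ± 0.70 (SE, n = 7 against 7), and without mouse 1 it was -0.47 ± 0.54. With any of the other 6 dosed mice left out instead, it was between 2.50 and 2.78. On log2(CPM + 1) without a model, the difference from control was 2.78 in block 1, -0.70 in block 3 and -0.96 in block 4.

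The level of Cdkn1a also differed between the experimental blocks. In the 77 mice outside PT 80 ppm, the median was 0.385 CPM in the 22 mice of block 1, with a highest value of 0.887 CPM. It was 1.83 CPM in the 33 mice of block 3 and 1.32 CPM in the 22 mice of block 4. Both mice of block 1 at PT 80 ppm, at 30.2 and 2.24 CPM, thus lay above all 22 other mice of their block. The 3 mice of block 3 lay inside the range of their block, 0.321 to 6.34 CPM, and of the 2 mice of block 4 one lay below it, at 0 CPM against a lowest value of 0.489 CPM.

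Gadd45b (chr10:80764523-80768038), by contrast, was higher in most mice at PT 80 ppm. The control mice had 1.80, 2.10, 4.35, 1.958, 1.42, 2.85 and 1.62 CPM. At PT 80 ppm mouse 1 had 196 CPM, and the others had 42.3, 25.6, 5.13, 12.2, 12.9 and 1.73 CPM. Of the 7 dosed mice, 6 lay above the highest control mouse, and mouse 7 lay within the control range. The fitted log2 fold change was 3.99 ± 0.50 (SE), and without mouse 1 it was 2.87 ± 0.40. Within the blocks the difference on log2(CPM + 1) was 4.97, 1.94 and 0.96 in blocks 1, 3 and 4. Unlike Cdkn1a, Gadd45b had like medians in the blocks outside PT 80 ppm, between 2.12 and 2.74 CPM.

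Trp53inp1 (chr4:11156412-11175230), which encodes a stress protein that helps p53 promote apoptosis and also acts in autophagy, was the only other gene of the 10 with a large value at that dose. The control mice had 29.3, 33.1, 63.6, 29.6, 34.2, 60.9 and 61.9 CPM. At PT 80 ppm mouse 1 had 408 CPM and mouse 2 had 119 CPM, and the others had 62.2, 87.2, 59.6, 59.2 and 36.8 CPM. Mice 1, 2 and 4 lay above the highest control mouse and the other 4 did not. The fitted log2 fold change was 1.43 ± 0.28 (SE), and without mouse 1 it was 0.68 ± 0.21. The difference on log2(CPM + 1) was 2.79 in block 1, 0.76 in block 3 and -0.39 in block 4.

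**Figure D1:**
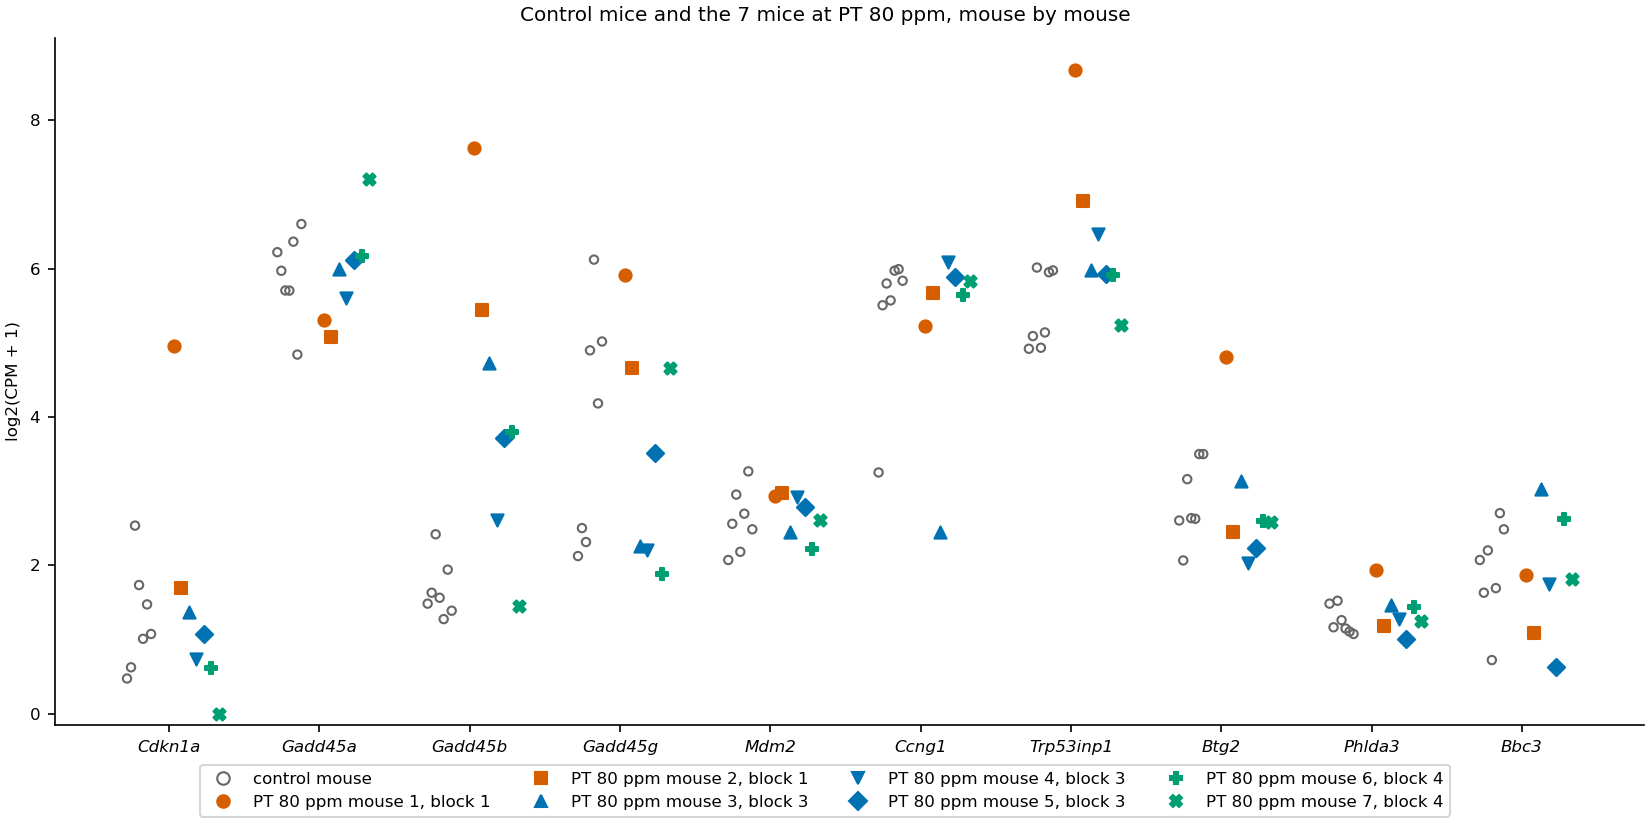
Level of the 10 genes as log2(CPM + 1) in the 7 control mice (open circles) and in each of the 7 mice at PT 80 ppm (filled symbols, 1 shape a mouse, coloured by block). Mouse 1 is the highest of the dosed mice for Cdkn1a, Gadd45b, Gadd45g, Trp53inp1, Btg2 and Phlda3, and for Gadd45b 6 of the 7 dosed mice lie above all control mice.

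The other 7 genes had fitted log2 fold changes between -0.11 and 0.24 at PT 80 ppm, but for several of them the blocks went opposite ways. On log2(CPM + 1) the differences from control in blocks 1, 3 and 4 were 2.97, -1.78 and -1.32 for Gadd45g, 1.30, -0.34 and -0.91 for Btg2, and -0.90, -0.02 and 0.96 for Gadd45a. They were 0.64, 0.11 and -0.46 for Mdm2, 1.07, -0.97 and -0.18 for Ccng1, 0.24, -0.06 and 0.26 for Phlda3, and -0.37, 0.26 and -0.38 for Bbc3. A fitted value near 0 thus does not show that a gene was the same in every block. Mdm2 was 4.90 CPM at the median of the control mice and 5.91 CPM at PT 80 ppm, and its log2 fold change was 0.20 ± 0.17 (SE, 95% interval -0.13 to 0.54). Gadd45a, the classical p53 target of its family, had a log2 fold change of -0.11 ± 0.28, with medians of 61.7 and 62.8 CPM. Phlda3, which blocks the kinase Akt, had 0.12 ± 0.27, and Bbc3, the pro-apoptotic protein Puma, had 0.20 ± 0.35. Ccng1, the cyclin G1 gene, had -0.09 ± 0.23. With 1 dosed mouse left out in turn, Mdm2 was between 0.13 and 0.27, Phlda3 between -0.04 and 0.21, Bbc3 between -0.15 and 0.38 and Ccng1 between -0.18 and 0.12. Gadd45a was between -0.43, without mouse 7, which had its highest level of 146 CPM, and 0.01.

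Btg2 and Gadd45g changed their values when mouse 1 was left out. Btg2, an anti-proliferative gene, had 27.03 CPM in mouse 1 and 3.11 to 7.84 CPM in the other 6, against 3.19 to 10.3 CPM in the control mice. Its log2 fold change was 0.24 ± 0.36 with mouse 1 and -0.54 ± 0.33 without it. Gadd45g had 59.02 CPM in mouse 1, 24.2 and 24.4 CPM in mice 2 and 7, and 2.696 to 10.4 CPM in the other 4, against 3.37 to 68.6 CPM in the control mice. Its log2 fold change was -0.10 ± 0.79 with mouse 1 and -0.90 ± 0.79 without it. Beside the mice of their own block in the other groups, both mice of block 1 at PT 80 ppm lay above all 22 for Cdkn1a, Gadd45b, Gadd45g and Trp53inp1, and below all 22 for Gadd45a. How many of all tested genes separated in this way was not counted, and mouse 1 is among these mice. The separation is therefore not read as particular to these genes.

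**Figure D2:**
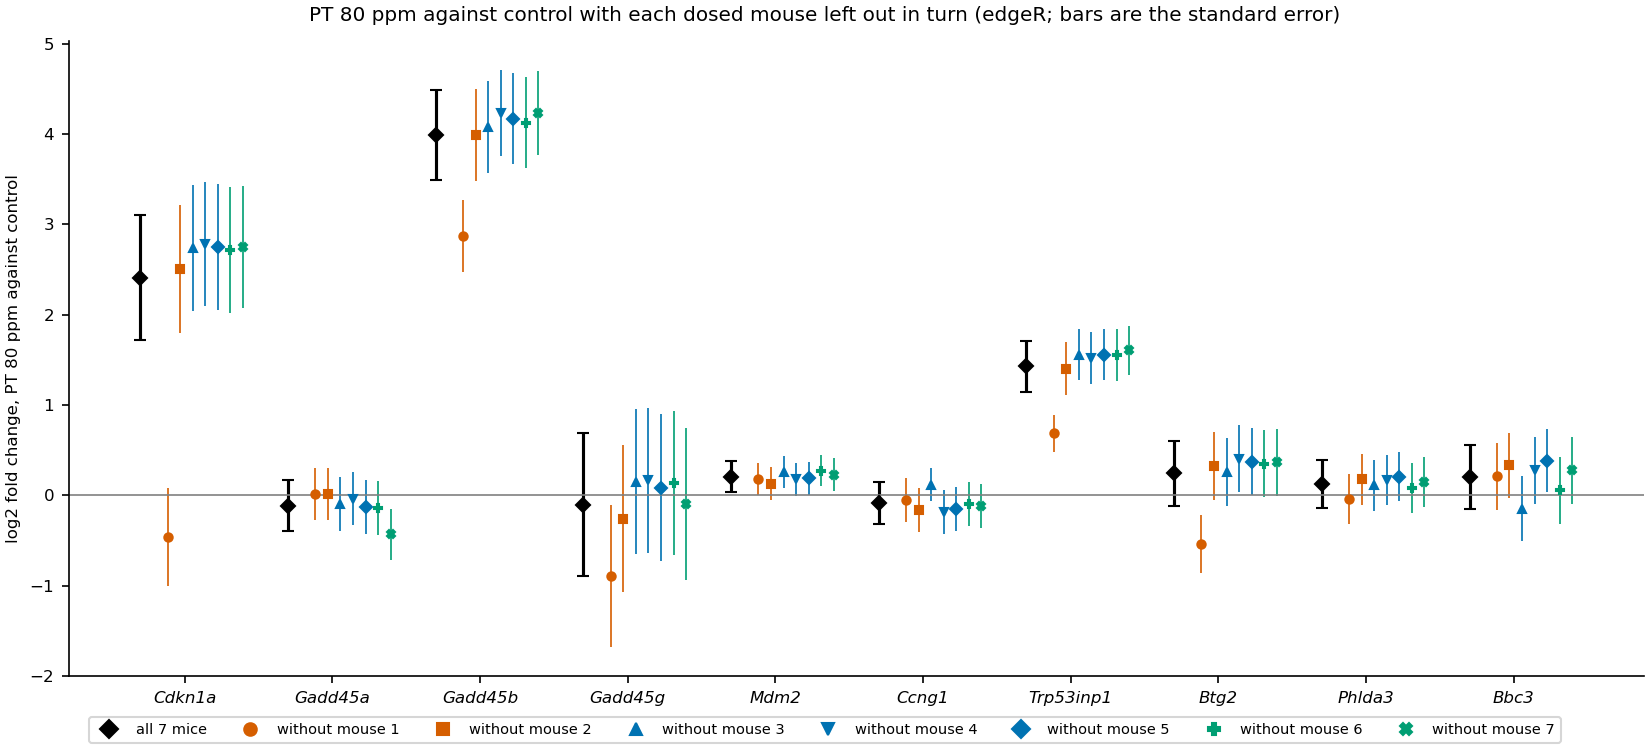
Fitted log2 fold change of each gene at PT 80 ppm against control with all 7 dosed mice (black diamonds) and with each of them left out in turn (coloured symbols), bars being the standard error. Leaving out mouse 1 takes Cdkn1a from 2.41 to -0.47, while Gadd45b stays at 2.87.

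Counted with the adjusted p-values of the fit, 3 of the 10 genes were past 0.05 at PT 80 ppm, where 18.6% of all tested genes were. Since this comparison chose the genes, nothing is read from the count. DESeq2 gave the same count of 3, and limma on log2(CPM + 1) gave 2, Cdkn1a not being among them. Other genes stood apart in mouse 1 too, and their part in its values was not tested. Summed over the Kupffer cell markers, mouse 1 had 15.4 CPM, against 86.1 to 155 CPM in the control mice, and summed over the genes of fasting and glucocorticoid response it had 4425 CPM, against 772 to 1866 CPM.

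In the 10 other dosed groups, edgeR called 0 of the 10 genes. Over those 100 comparisons, which share the control mice, 4 had an unadjusted p under 0.05, where between 3.98% (FT 20 ppm) and 17.7% (FT 10 ppm) of all tested genes had one, and DESeq2 and limma also called none. The fitted log2 fold changes of Gadd45b lay between -0.0015 (MT 10 ppm) and 0.65, with the highest at PT 40 ppm (0.65 ± 0.52, adjusted p = 0.731 by edgeR). At PT 40 ppm the mice had 2.57, 3.02, 6.08, 3.03, 1.44, 2.26 and 4.56 CPM of Gadd45b, and 2 of the 7 lay above the highest control mouse. Cdkn1a lay between -0.56 (PT 40 ppm) and 0.68 (MT 10 ppm), and Trp53inp1 between 0.02 (PT 40 ppm) and 0.48 (MT 100 ppm, adjusted p = 0.416 by edgeR).

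The share of all tested genes past an adjusted p of 0.05 by edgeR was small at these doses too. It was 0.0096% at FT 2.5 ppm, 0% at FT 5 ppm, 1.57% at FT 10 ppm and 0% at FT 20 ppm. For MT it was 0% at 10 and 25 ppm, 0.0096% at 50 ppm and 0.0768% at 100 ppm, and for PT it was 0.0096% at 20 ppm and 0% at 40 ppm. A count of 0 among 10 genes is thus near the background in each of these groups. The joint test over all doses of an OPP also called 0 of the 10 genes for FT (0.0768% of all genes), for MT (0.0864%) and for PT 20 and 40 ppm (0%). DESeq2 likewise called none. The unadjusted p by edgeR was under 0.05 for Gadd45g with MT (0.0257) and with PT 20 and 40 ppm (0.012). Of all tested genes, 9.22% had such a p with MT and 7.56% with PT 20 and 40 ppm.

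**Figure D3:**
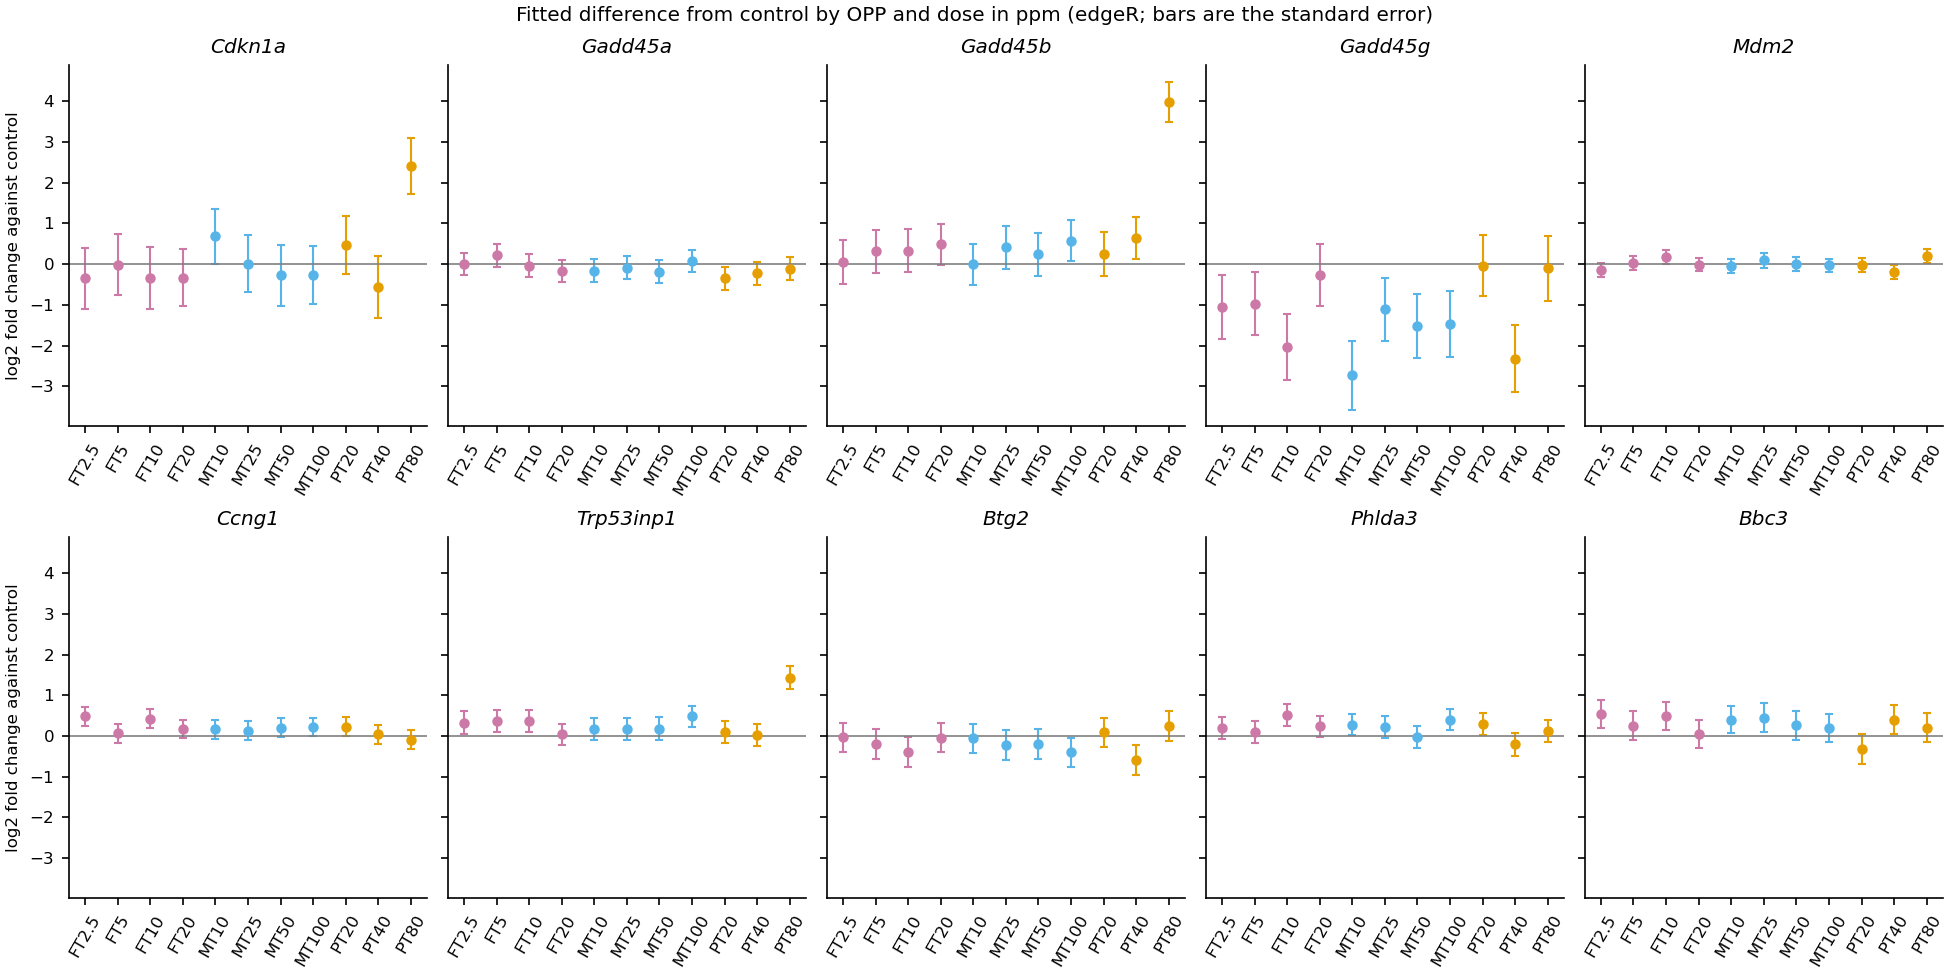
Fitted log2 fold change against control (point) with its standard error (bar) for each gene in the 11 dosed groups, FT in pink, MT in blue and PT in orange. Values far from 0 appear for Cdkn1a, Gadd45b and Trp53inp1 at PT 80 ppm, and Gadd45g has wide errors and values down to -2.73 (MT 10 ppm).

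Gadd45g varied widely between the mice of a group. In the control group its lowest, median and highest levels were 3.37, 17.2 and 68.6 CPM. At MT 10 ppm they were 1.44, 3.39 and 5.14 CPM, at MT 25 ppm 1.33, 2.02 and 67.96 CPM, and at PT 40 ppm 1.55, 2.71 and 15.8 CPM. The control group had the highest median of the 12 groups for this gene, and the ranges of groups next to each other in the order of medians overlapped in 11 of 11 cases. The 3 lowest log2 fold changes were -2.73 ± 0.85 for MT 10 ppm (adjusted p = 0.288 by edgeR), -2.33 ± 0.82 for PT 40 ppm (adjusted p = 0.437) and -2.04 ± 0.81 for FT 10 ppm (adjusted p = 0.163). The control mice of block 1 and mouse 3, at 3.37, 4.67 and 3.98 CPM, lay near the dosed mice, and the other 4 control mice, at 17.2 to 68.6 CPM, lay above most of them.

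Mdm2 had group medians from 3.98 CPM (FT 2.5 ppm) to 5.91 CPM (PT 80 ppm), and its standard errors were the smallest of the 10 genes. Outside PT 80 ppm the largest of its log2 fold changes in size was -0.19. Ccng1 had group medians from 47.6 to 61.2 CPM but single mice far from their groups. Control mouse 1 had 8.53 CPM against 44.4 to 62.6 CPM in the other control mice, PT 80 ppm mouse 3 had 4.49 CPM against 36.5 to 66.8 CPM, and FT 2.5 ppm mouse 7 had 129 CPM against 45.8 to 64.9 CPM. That last mouse also had the highest Btg2 level outside PT 80 ppm, 18.2 CPM, and the lowest agreement with its group outside PT 80 ppm, at a Spearman correlation of 0.954. For each of the 10 genes, all 11 pairs of groups next to each other in the order of medians overlapped in range, Gadd45b at PT 80 ppm included, since mouse 7 there had 1.73 CPM.

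**Figure D4:**
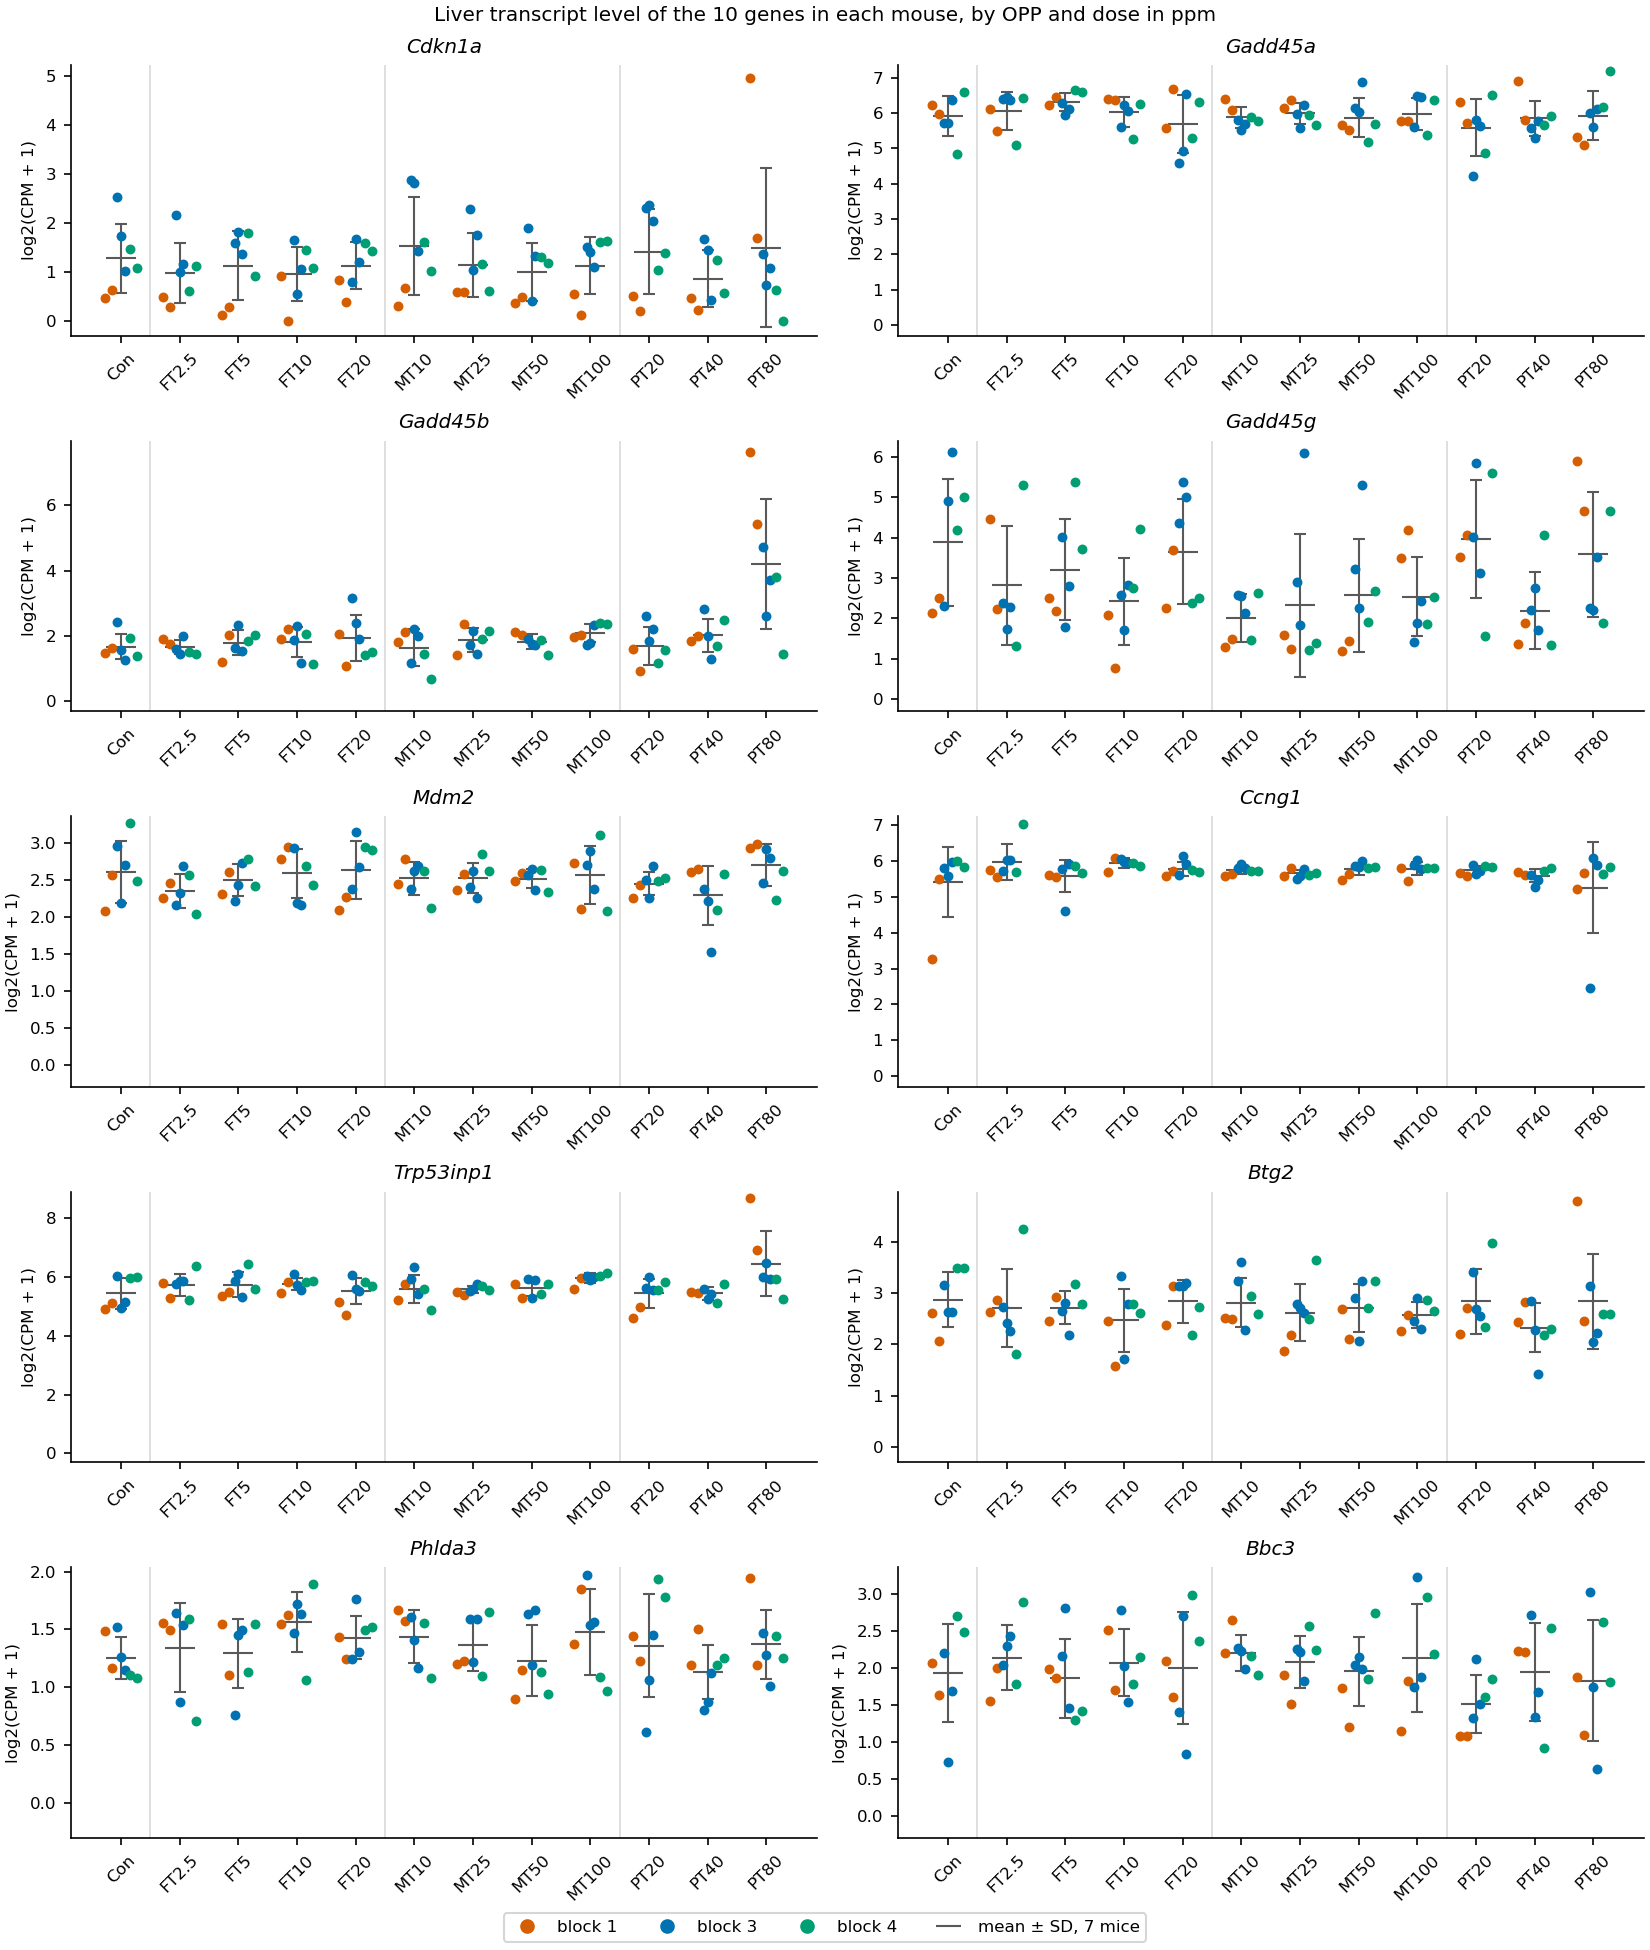
Level of each gene as log2(CPM + 1) in every mouse by group, coloured by block, with the mean and SD of 7 mice. For Cdkn1a the mice of block 1 lie below those of blocks 3 and 4 in most groups, except for mouse 1 and mouse 2 at PT 80 ppm, and Gadd45g spreads widely in nearly every group.

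The OPPs could be compared directly where their doses matched in ppm and in mg/Kg-bw/day. FT, MT and PT are all phosphorothioate or phosphorodithioate esters that the liver turns into cholinesterase-inhibiting oxons. In FT and MT at 10 ppm, and in FT and PT at 20 ppm, 0 of the 10 genes differed by edgeR (0% of all tested genes in either comparison), 0 had an unadjusted p under 0.05, and DESeq2 called none. These 20 differences do not show that the OPPs act alike. For Gadd45b the difference was 0.33 (95% interval -0.68 to 1.34) for FT against MT and 0.25 (-0.75 to 1.24) for FT against PT. For Cdkn1a it was -1.02 (-2.38 to 0.34) and -0.80 (-2.21 to 0.62), and for Mdm2, the most precisely measured, 0.24 (-0.09 to 0.57) and 0.00 (-0.34 to 0.34). No dose of FT or MT matched PT 80 ppm.

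The wider p53 response was read from lists of genes beside the 10. Of 43 other p53 targets, 31 were tested, and at PT 80 ppm 0 were higher and 1 was lower by edgeR, where 9.73% of all tested genes were higher and 8.89% lower. Before adjustment 3 were higher and 4 lower at p under 0.05, where 30.5% of all tested genes were in either direction, DESeq2 gave the same calls in number, and without mouse 1 the counts were 0 and 2, the second being Fas. Their median log2 fold change was 0.07 (0.01 over all tested genes), and all 31 lay between -0.52 (Pltp) and 0.80 (Sulf2). Triap1, an inhibitor of apoptosis, was the one that fell, from 8.90 to 14.6 CPM in the control mice to 7.54 to 11.2 CPM (log2 fold change -0.45 ± 0.11, adjusted p = 0.00192 by edgeR). Tap1, a peptide transporter of antigen presentation, was the only gene of that list called at any other dose. It was 0.0783 to 1.65 CPM in the control mice and 1.08 to 3.56 CPM at FT 10 ppm, with 4 of the 7 dosed mice above all control mice (log2 fold change 1.23 ± 0.34, adjusted p = 0.0461 by edgeR). Without control mouse 5, edgeR called 0 genes at that dose, Tap1 included. Of p53's regulators, 13 were tested, among them Mdm4, Atm and Atr, and 0 were called at PT 80 ppm by edgeR or by DESeq2. Before adjustment 5 of the 13 had a p under 0.05 by edgeR, again beside 30.5% of all tested genes. Without mouse 1 the checkpoint kinase gene Chek1 was called in the lower direction (log2 fold change -1.34, adjusted p = 0.0254 by edgeR). Trp53 itself was not analysed here.

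Genes of the cell cycle that p21 is known to lower were in part lower at PT 80 ppm, and not in mouse 1 alone. Whether p21 had a part in this was not tested. Cdkn1a itself had a log2 fold change of -0.47 ± 0.54 without mouse 1. Of 19 such genes 11 were tested, and 6 fell and 0 rose, with a median log2 fold change of -1.12 over the 11. Among all tested genes 8.89% fell and 9.73% rose at this dose. Top2a, the topoisomerase of dividing cells, was 1.93 to 4.29 CPM in the control mice and 0.0919 to 1.35 CPM at PT 80 ppm, so that the groups did not overlap (log2 fold change -2.15 ± 0.32, adjusted p = 8.35e-07 by edgeR). Mcm2, a helicase subunit of replication, and the mitotic kinase Aurkb also did not overlap, with log2 fold changes of -1.21 ± 0.20 and -1.69 ± 0.40. Cdc20 had -2.65 ± 0.51, Ccna2 -1.50 ± 0.37 and Birc5 -1.12 ± 0.38. Without mouse 1, 5 of the 11 remained past the threshold, Birc5 having -1.005 and an adjusted p of 0.0808 by edgeR. Of the 6 that fell, all but Top2a and Mcm2 were below 3 CPM in every control mouse. Among other inhibitors of cyclin-dependent kinases, Cdkn1b, which encodes p27, was the only gene tested and rose (log2 fold change 0.36 ± 0.13, adjusted p = 0.0354 by edgeR). It was past the threshold no longer without mouse 1 (0.26, adjusted p = 0.18).

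Partners of the Gadd45 proteins had small fold changes. Of 9 kinases and binding partners 7 were tested. At PT 80 ppm 1 rose and 1 fell, where 9.73% of all tested genes rose and 8.89% fell. Mapk14, which encodes p38 alpha, rose by 0.25 ± 0.08 and Map3k4 fell by 0.27 ± 0.10 on the log2 scale, and without mouse 1 the values were 0.20 and -0.24 (adjusted p = 0.0869 and 0.118 by edgeR). Of the relatives of Btg2, 3 were tested, and Tob2 rose from 0.445 to 1.45 CPM in the control mice to 0.863 to 3.95 CPM (log2 fold change 1.06 ± 0.27, adjusted p = 0.00283 by edgeR, and 0.0108 without mouse 1).

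Genes that respond to fasting and glucocorticoids were in part higher at PT 80 ppm. Of 15 tested, 6 rose and 0 fell at PT 80 ppm, where 9.73% of all tested genes rose and 8.89% fell. Without mouse 1, 4 of the 15 rose. Fkbp5, a chaperone gene induced by the glucocorticoid receptor, was 25.3 to 52.6 CPM in the control mice. At PT 80 ppm it was 951 and 875 CPM in mice 1 and 2, and 89.7, 36.9, 231, 58.6 and 131 CPM in mice 3 to 7 (log2 fold change 2.94 ± 0.38, adjusted p = 2.78e-08 by edgeR). Mice 1 and 2, both of block 1, also had the 2 highest levels of Gadd45b and Trp53inp1. Igfbp1, an insulin-like growth factor binding protein raised in fasting, had 813 CPM in mouse 1 and 8.13 to 34.2 CPM in the others, against 6.77 to 34.4 CPM in the control mice. Its log2 fold change was 3.00 ± 0.69 with mouse 1 and 0.36 without it (adjusted p = 0.722 by edgeR). Ppargc1a (1.10 ± 0.21), Tsc22d3 (0.96 ± 0.25), Klf15 (0.71 ± 0.16) and Foxo1 (0.64 ± 0.24) were the other 4 that rose, and Foxo1 was lost without mouse 1. For Klf15 all 7 dosed mice lay above the highest control mouse.

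The integrated stress response, which slows translation under stress, had 10 tested genes, of which 2 rose and 1 fell at PT 80 ppm. The shares over all tested genes were 9.73% and 8.89%. Ddit4, an inhibitor of mTORC1, had 49.8 CPM in mouse 1 and 6.41 CPM in mouse 2, and 0.37 to 1.19 CPM in the others, against 0.653 to 2.03 CPM in the control mice. Its log2 fold change was 2.69 ± 0.60 with mouse 1 and 0.56 without it (adjusted p = 0.503 by edgeR). Trib3, a pseudokinase induced through Ddit3, rose by 1.16 ± 0.39 with its highest level in mouse 3, 9.51 CPM, and stayed past the threshold without mouse 1 (adjusted p = 0.0163). Atf5 fell by 0.24 ± 0.09, and was -0.24 without mouse 1 (adjusted p = 0.0741). For Ddit4 and Igfbp1 the call thus rested on mouse 1, the mouse with the highest Cdkn1a level.

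Markers of cell types moved at PT 80 ppm as well, where 9.73% of all tested genes were higher and 8.89% lower. Of 8 hepatocyte markers 3 rose (Tat, Cps1 and Hnf4a) and 1 fell (Fgb, by 0.57 ± 0.17). Tat rose by 1.57 ± 0.43, with 86.8 CPM in mouse 1 and 30.6 CPM in mouse 2 against 2.82 to 13.8 CPM in the control mice, but was 0.62 without mouse 1 (adjusted p = 0.299 by edgeR). The summed levels of all 8 were 30890 to 47900 CPM against 31500 to 46780 CPM. Of 5 tested Kupffer cell markers 3 fell, namely Cd5l, Clec4f and Cd68, and Cd5l had 6.71 CPM in mouse 1 and 37.03 to 73.6 CPM in the others, against 57.5 to 121 CPM in the control mice. Of 4 other leukocyte markers 1 fell (Ptprc), of 6 stellate cell markers 1 rose (Dcn), of 5 endothelial markers 0 were called by edgeR or DESeq2 and 1 had an unadjusted p under 0.05, and no cholangiocyte marker was tested. Without mouse 1, Clec4f (-0.67, adjusted p = 0.0526 by edgeR), Cd68 (-0.53, 0.0815), Ptprc (-0.39, 0.162) and Dcn (0.21, 0.18) were no longer past the threshold. Their summed levels at PT 80 ppm and in the control group were 10.9 to 41.6 and 24.5 to 55.2 CPM for the leukocyte markers, 152 to 212 and 136 to 184 CPM for the stellate cell markers and 100.0 to 139 and 95.1 to 129 CPM for the endothelial markers. The cholangiocyte markers summed to 0.321 to 9.05 CPM and 0.47 to 1.31 CPM, and their part in the values of the 10 genes was not tested.

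Whether the genes varied together was also asked outside PT 80 ppm, in mice that include the control mice of the comparison that chose Cdkn1a and Gadd45b. After group, block and RNA isolator were subtracted from log2(CPM + 1), the 45 pairs of genes were correlated over the 77 mice outside PT 80 ppm, with a permutation test of 100000 resamples and adjustment over the 45 pairs. Of these pairs 9 were past an adjusted p of 0.05 by Pearson's r, 8 of them positive, and 4 were by Spearman's rho as well. The median r over all 45 pairs was 0.10, and the values lay between -0.31 and 0.45. How many pairs of other tested genes pass in these mice was not counted. The 9 pairs are therefore not read as particular to these genes.

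Trp53inp1 took part in 4 of the 9 pairs. With Btg2 it had r = 0.45 (permutation p = 2e-05, adjusted 0.0009) and rho = 0.39 (permutation p = 0.00046, adjusted 0.0103). With Gadd45b it had r = 0.40 (permutation p = 0.00032, adjusted 0.0048) and rho = 0.35 (permutation p = 0.00214, adjusted 0.0241), and with Cdkn1a r = 0.37 (permutation p = 0.0012, adjusted 0.0135) and rho = 0.35 (permutation p = 0.00181, adjusted 0.0241). Without the 2 mice farthest from the median of Trp53inp1, Gadd45b and Cdkn1a, these became 0.41, 0.35 and 0.32 in the same order. Gadd45g and Btg2 had r = 0.42 and rho = 0.44 (adjusted permutation p = 0.00472 and 0.0036). The pairs of Trp53inp1 with Bbc3 (0.35), Cdkn1a with Btg2 (0.33), Gadd45g with Ccng1 (0.33) and Gadd45b with Mdm2 (0.32) passed by r only.

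Cdkn1a and Gadd45b themselves, the pair higher at PT 80 ppm, had r = 0.14 outside that group (permutation p = 0.238, adjusted 0.397). Gadd45a and Gadd45b had the only negative r past the threshold, -0.31 (adjusted permutation p = 0.027), which was -0.17 without the 2 farthest mice and -0.22 by rho (adjusted permutation p = 0.213). Mdm2 with Cdkn1a, the pair of p53's feedback gene and its best known target, had r = 0.10, and no pair of Phlda3 was past the threshold. These p-values treat each mouse as a separate sample, although mice can share a cage.

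**Figure D5:**
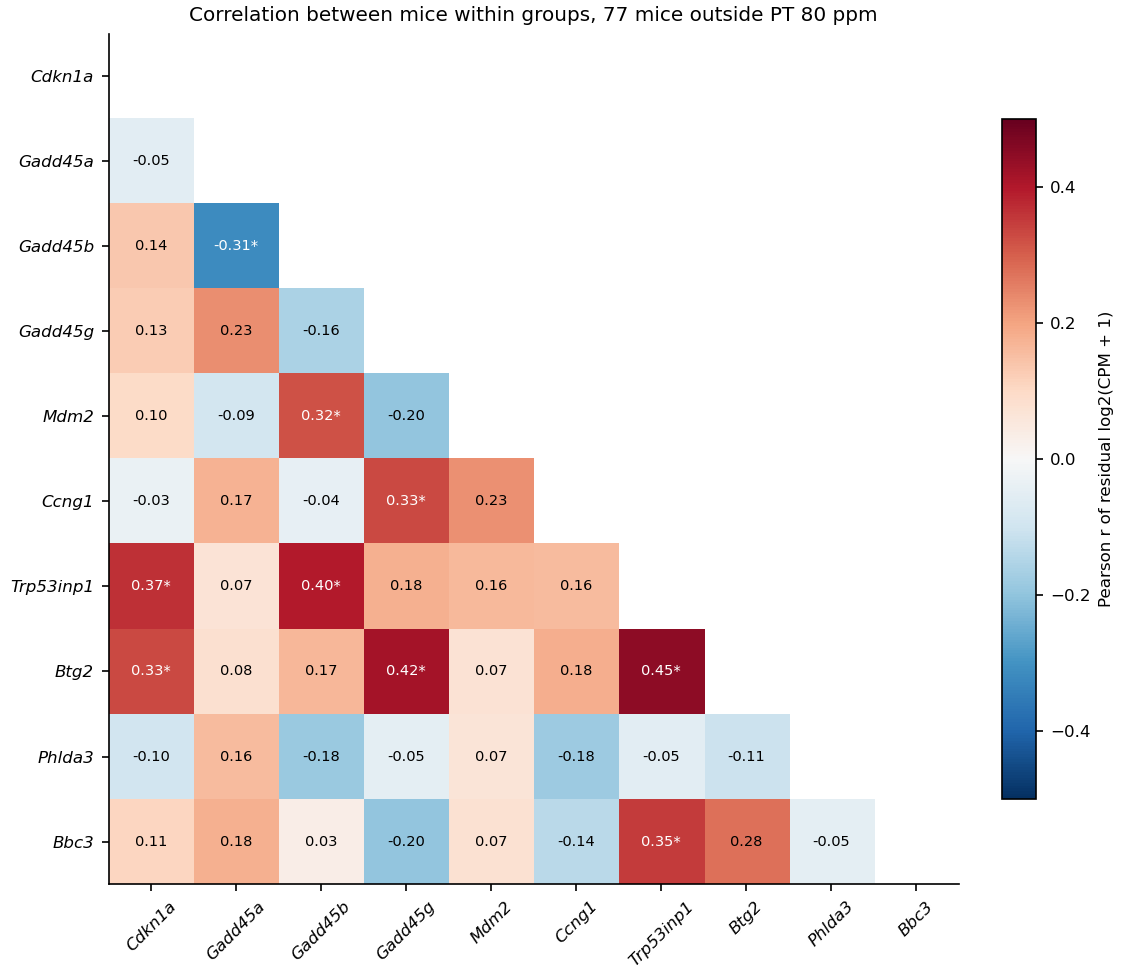
Pearson r between the 10 genes over 77 mice outside PT 80 ppm, after group, block and RNA isolator were subtracted, with a star where the adjusted permutation p is under 0.05. The 9 starred pairs include 4 with Trp53inp1, and the r of Cdkn1a with Gadd45b is 0.14.

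The genes most like Cdkn1a in log2(CPM + 1) over all 84 mice were Cry1 (r = 0.75), Slc45a3 (r = 0.74) and Lonrf3 (r = 0.74), given as a description. Cry1 encodes a repressor of the circadian clock. Outside PT 80 ppm these were 0.74, 0.67 and 0.78, and after group, block and isolator were subtracted 0.64, 0.38 and 0.61. All 3, like Cdkn1a, were lower in block 1 than in blocks 3 and 4. The median of Cry1 was 13.1 CPM in block 1, 23.2 CPM in block 3 and 30.4 CPM in block 4, and within the blocks its r with Cdkn1a was 0.18, 0.75 and 0.36. The genes most like Gadd45b were Cyp39a1 (r = 0.81), an oxysterol hydroxylase, As3mt (r = 0.80), an arsenite methyltransferase, and Fmo2 (r = 0.79), a monooxygenase. Outside PT 80 ppm their r with Gadd45b was 0.16, 0.45 and 0.05. The likeness of Cyp39a1 and Fmo2 to Gadd45b was thus not seen outside that group, whereas that of Cry1 to Cdkn1a was. The mice outside that group are among the 84 by which these genes were picked. The r of Cry1 outside it is therefore no separate observation.

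The adjusted values that the study deposited gave other calls for some of the 10 genes. Calls there needed an adjusted p under 0.05 in an F test across the groups of an OPP and its control, and a difference of at least 2-fold. Of all 11064 genes in that table, 1099 met these limits with FT, 874 with MT and 1039 with PT, against 3, 2 and 4 of the 10 genes. The test for PT holds the mice at PT 80 ppm, whose levels chose Cdkn1a and Gadd45b. Its calls among the 10 genes are therefore a description, and nothing is read from their count. Gadd45g was called for all 3 OPPs. Its largest differences from control on that log2 scale were -3.65 (FT 10 ppm), -4.06 (MT 25 ppm) and -4.14 (PT 40 ppm). Gadd45a was called for FT and MT, Btg2 for FT and PT, Gadd45b for PT (2.66 at PT 80 ppm) and Cdkn1a for PT with its largest difference in the lower direction, -1.58 at PT 40 ppm. The adjusted Gadd45g values of the control mice were 2.86, 3.32, 3.09, 2.47, 3.72, 3.09 and 3.09, for measured levels of 3.37, 4.67, 3.98, 28.8, 68.6, 17.2 and 31.4 CPM. Control mice 3, 6 and 7, each the only control mouse of its block and RNA isolator, had the same adjusted value. Trp53inp1 was not called on these values, since its largest difference, -0.87 at PT 20 ppm, was under 2-fold, and its difference at PT 80 ppm was 0.33.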

How the data were processed

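Liver RNA of 84 mice in 12 groups of 7 was measured by TempO-Seq. The authors trimmed reads at a Phred score of 20, aligned them to mm39 with STAR and assigned them to Ensembl genes by expectation maximisation, and deposited estimated counts per gene without normalisation (18.7% of values not whole). They also deposited log2 CPM values that they had adjusted for block and RNA isolator, treated here as a score. Where 1 mouse was alone in its group, block and isolator, that table holds the group mean.

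Counts were rounded. Genes with a median count above 8 (10415 of 17695) were tested with edgeR 4.0.16 in R 4.3.3, by the quasi-likelihood test with TMM factors on group, block and isolator over all mice, with Benjamini-Hochberg adjustment at 0.05. DESeq2 1.42.0 and limma 3.58.1 (log2(CPM + 1), pseudocount 1) were alternatives. On simulated counts for PT 80 ppm against control, 84 of 100 genes changed by 1 on the log2 scale were recovered, 99 of 100 changed by 2, and 12 unchanged genes were called. The smallest counts limit precision, and limits from counts cover counting error only.

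The 10 genes, the lists and the tests were chosen with earlier results of these data known. Named beside the 10 were genes of the p53 lists past the threshold, genes of the other lists also at least 2-fold, and the 3 genes with the highest Pearson r to Cdkn1a and to Gadd45b. Genes of the other lists under 2-fold and genes called only in an alternative were named after their values were seen. Trp53, Btg3 and Cdkn2d were not analysed here. Promoter windows were read from GRCm39 at the canonical transcript starts of GENCODE vM39.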

Additional observations from a re-analysis of the deposited data

Results flagged for a closer look

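Of the 120 sets of 7 mice (10 genes in 12 groups), 11 held a mouse whose log2(CPM + 1) lay farther from the others than Dixon's limit for 7 samples allows. Chance gives about 1 in 20 for independent samples with a normal spread, but these sets share the same mice. The share over all tested genes was not counted, so the 11 are not read as an excess. Mouse 1 at PT 80 ppm stood apart for Cdkn1a (30.2 CPM, others 0 to 2.24) and for Btg2 (27.03 CPM, others 3.11 to 7.84). Ccng1 was set apart in 5 groups. Its level was 8.53 CPM in control mouse 1, 129 CPM in mouse 7 at FT 2.5 ppm, 23.5 CPM in mouse 4 at FT 5 ppm, 42.2 CPM in mouse 2 at MT 100 ppm and 4.49 CPM in mouse 3 at PT 80 ppm. Mouse 7 at FT 2.5 ppm stood apart for Btg2 as well (18.2 CPM, others 2.53 to 6.28). Gadd45a was 118 CPM in mouse 1 at PT 40 ppm (others 38.2 to 59.7), Gadd45g was 67.96 CPM in mouse 5 at MT 25 ppm (others 1.33 to 6.48), and Trp53inp1 was 47.3 CPM in mouse 1 at MT 100 ppm (others 58.9 to 68.8).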

How the results depend on the processing

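At PT 80 ppm Gadd45b kept its direction under every setting tried, with 2.87 to 4.23 when 1 dosed mouse and 3.88 to 4.12 when 1 control mouse was left out, and on log2(CPM + 1) it was 1.94 within block 3 and 0.96 within block 4. Cdkn1a was -0.47 to 2.78 with 1 dosed mouse left out, the lowest without mouse 1, and 2.28 to 2.60 with 1 control mouse left out. As a description, its value was 1.44 without covariates, 1.92 with control and PT mice alone, 0.32 by limma, -0.70 on the deposited adjusted values, -0.70 within block 3 and -0.96 within block 4. Trp53inp1 was 0.68 to 1.61 with 1 dosed mouse and 1.34 to 1.55 with 1 control mouse left out, 0.33 on the deposited adjusted values, 2.79 within block 1 and -0.39 within block 4. On the deposited adjusted values Gadd45g was -2.35, Ccng1 -0.97, Btg2 -0.90 and Gadd45a -0.89. Outside PT 80 ppm the number of the 10 genes called stayed at 0 under all alternatives on the counts, but was 3 for FT and 2 for MT jointly on the deposited adjusted values (1099 and 874 of all 11064 genes), where some control mice hold the group mean. Without a filter on low counts, 997 of all genes were higher and 851 lower. Of the 19 cell cycle genes measured, 11 were lower there, among them Ccnb1, Ccnb2, Bub1, Mki67 and Mcm5, which the filter had left out. Among the other kinase inhibitors Cdkn1b was lost (0 higher, 1 lower, Cdkn3). In that setting 1 Gadd45 partner was higher, Map2k6, and Mapk14 was lost. There 0 Gadd45 partners, 0 stress response genes and 0 leukocyte markers were lower, and 1 cholangiocyte marker, Krt19, was higher. Without mouse 1 at PT 80 ppm, a setting chosen after seeing the data, 2 other p53 targets and 1 p53 regulator were lower, 0 other kinase inhibitors were higher, 0 Gadd45 partners were called, 1 stress response gene was higher and 0 lower, 1 Kupffer and 0 leukocyte markers were lower, and 0 stellate and 1 endothelial marker (Kdr) were higher. Over all tested genes, the count at PT 80 ppm was 997 to 2329 (1939 as reported, 1287 without mouse 1), at FT 10 ppm 0 (without control mouse 5) to 900, at MT 100 ppm 4 to 138, jointly 13 to 106 for FT (8 as reported) and 6 to 34 for MT (9 as reported), and the cause was not tested. Among the 45 correlated pairs, 9 were called with a pseudocount of 0.25 or 4 CPM and 11 in EA mice alone. Over all 84 mice 13 were called, and Cdkn1a and Gadd45b had r = 0.64. Those 84 include the mice at PT 80 ppm, whose levels chose both genes, so nothing is read from these last values. No paired analysis was possible because the replicate numbers only name the mice. Cdkn1a, with 3 counts or fewer in 11 mice, is the gene most limited by depth.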
